A study of Homo sapiens with 6 samples.

Results

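The genes described here encode the chains of collagen. They were taken as all genes whose single symbol in the array's annotation is COL, a number, A and a number, with 1 probe set standing for each gene: where a gene has several, that with the greatest mean across the 6 arrays, called the brightest below. The rule gave 43 of the 19775 genes tested. RNA came from DLD-1, a human colon cancer cell line, as 2 subclones labelled DLD-1Δα-Cat (n = 3 arrays) and DLD-1α-Cat (n = 3 arrays). Both received no treatment and spent 96 h inside a matrix of type I collagen at 1 mg/ml. What Δα-Cat stands for is not written out in the labels. They also name no separate cultures for the arrays of a subclone, so the p-values reflect the spread among these arrays alone, and that spread may be technical. Values are log2 intensities after the authors' RMA normalization, and a difference above 0 means a higher value in DLD-1Δα-Cat.

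A collagen molecule is a helix wound from several chains, and each chain gene contributes to a particular collagen type. Fibrillar types build the fibres of connective tissue, type IV builds the sheet-like network of basement membranes, and FACIT collagens (fibril-associated collagens with interrupted triple helices) sit on fibrils. In the intestine, fibroblasts of the stroma make most fibrillar collagen, while epithelial cells rest on a basement membrane rich in type IV. The gel around the cells was supplied as protein and contributes no RNA to these measurements.

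Collagen genes split between a few that were higher in DLD-1Δα-Cat and many that were not distinguishable between the subclones. COL21A1, COL11A2, COL27A1 and COL24A1 rose and no collagen gene fell. The count of 4 of 43 is 9.30% of the collagen genes, where 3.84% of all tested genes were higher (limma, Benjamini-Hochberg adjusted p under 0.05 over all genes). The count of 0 lower genes stands beside 1.67% of all tested genes. At an unadjusted p under 0.05 limma gave 9 higher collagen genes (20.9%, against 11.8% of all tested genes) and 5 lower ones (11.6%, against 8.98%, a share near the background). Arrays of the subclones did not overlap in 7 higher collagen genes (16.3%, against 14.1% of all tested genes) and in 6 lower ones (14.0%, against 13.1%), shares near those of the background. The median difference over the 43 genes was -0.069, beside -0.030 over all tested genes, with 16 genes above 0 and 27 below. Bulk RNA cannot tell fewer expressing cells from less RNA per cell.

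Most collagen genes were dim. The mean of 39 of the 43 lay below 7.82, the median level of all tested genes, and only COL4A2, COL9A3, COL21A1 and COL4A1 lay above it. Of the 39 dim genes 3 rose (7.69%), beside 3.62% of all tested genes below that level, and 0 fell, beside 0.860%. No detection calls were used, so for the dimmest genes signal and background cannot be separated. CTNNA1, which encodes αE-catenin and checks the labels, averaged 11.23 (SD 0.193) over the 3 arrays of DLD-1Δα-Cat and 12.75 (SD 0.0324) over those of DLD-1α-Cat. The defining epithelial markers EPCAM, CDH1 and CDH17 had means between 13.26 and 13.46 in both subclones. Of 12 epithelial markers 0 rose and 2 fell, beside 3.84% and 1.67% of all tested genes. Those that fell were CDX1 (difference -1.09, limma adjusted p = 0.00117) and CLDN3 (-0.46, 0.0328). The mean of the 12 per array lay between 11.18 and 11.32 in DLD-1Δα-Cat and between 11.34 and 11.40 in DLD-1α-Cat. The part of these differences in the results was not tested. Of the defining fibroblast markers, LUM had means of 2.97 and 3.07, DCN of 4.50 and 4.54 and PDGFRA of 3.84 and 3.77 in DLD-1Δα-Cat and DLD-1α-Cat. None of 12 fibroblast markers outside the collagens passed, and 11 of the 12 were below the median level. Their mean per array lay between 4.56 and 4.69 in DLD-1Δα-Cat and between 4.48 and 4.70 in DLD-1α-Cat. FBLN1, which lay above that level, had means of 8.31 and 7.56 (difference 0.75, limma adjusted p = 0.207), with overlap. Arrays did not overlap for FAP (0.34) nor, in the other direction, for THY1 (-0.33) and TCF21 (-0.35). None of 10 endothelial markers passed either. Their mean per array lay between 5.44 and 5.54 in DLD-1Δα-Cat and, without overlap, between 5.58 and 5.76 in DLD-1α-Cat. All DLD-1Δα-Cat arrays were lower for 3 of the 10, PECAM1 (-0.46), ESAM (-0.46) and TIE1 (-0.68), and higher for 0. Of all tested genes 13.1% were lower and 14.1% higher in that way. The defining markers VWF and CDH5 differed by 0.23 and -0.20, with overlap. A measure of RNA quality, the 3'-over-5' signal of the β-actin control probe sets (log2), differed between the subclones without overlap. The measure ran from 5.07 to 5.38 in DLD-1Δα-Cat and from 4.36 to 4.89 in DLD-1α-Cat. Its part in the results cannot be told apart from that of the subclone, also in the fit with it as a covariate given below. The same measure for GAPDH overlapped, from 0.685 to 0.819 and from 0.506 to 0.794.

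COL21A1 had the largest difference of all collagen genes. It encodes the chain of type XXI, a FACIT collagen described in blood vessel walls. Replicates 1, 2 and 3 read 8.71, 9.63 and 9.04 in DLD-1Δα-Cat and 5.96, 7.82 and 6.63 in DLD-1α-Cat. Every DLD-1Δα-Cat array was above every DLD-1α-Cat array, and in both subclones replicate 2 was the highest. The group means were 9.13 ± 0.465 and 6.80 ± 0.941 (SD, n = 3 each), a difference of 2.32 (SE 0.454, limma adjusted p = 0.0306) or 5.01-fold. This gene has 1 probe set on the array.

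COL11A2, COL27A1 and COL24A1 are all minor fibrillar chains. COL11A2 encodes a chain of type XI collagen, which forms thin fibrils with type II collagen in cartilage. It read 8.06, 8.50 and 8.05 in DLD-1Δα-Cat and 6.36, 7.31 and 7.24 in DLD-1α-Cat, without overlap, and replicate 1 of DLD-1α-Cat was the lowest. The difference was 1.23 (SE 0.265, limma adjusted p = 0.0424), 2.35-fold, while its other probe set stood at 0.028.

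COL27A1, a fibrillar collagen of cartilage, read 6.39, 6.99 and 6.58 in DLD-1Δα-Cat and 4.92, 5.90 and 5.55 in DLD-1α-Cat. The groups did not overlap, and replicate 2 was again the highest of each subclone. Its difference was 1.20 (SE 0.262, limma adjusted p = 0.0446), 2.29-fold, while its further probe sets stood at -0.090, 1.00, -0.35 and -0.053. COL24A1, a fibrillar collagen described in developing bone and cornea, was dimmer, at 4.996, 4.84 and 4.97 against 4.17, 4.25 and 4.60. The arrays did not overlap, although the DLD-1α-Cat arrays spread more widely. Its difference of 0.60 (SE 0.135, limma adjusted p = 0.0495) was the closest of the 4 to the threshold.

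**Figure D1:**
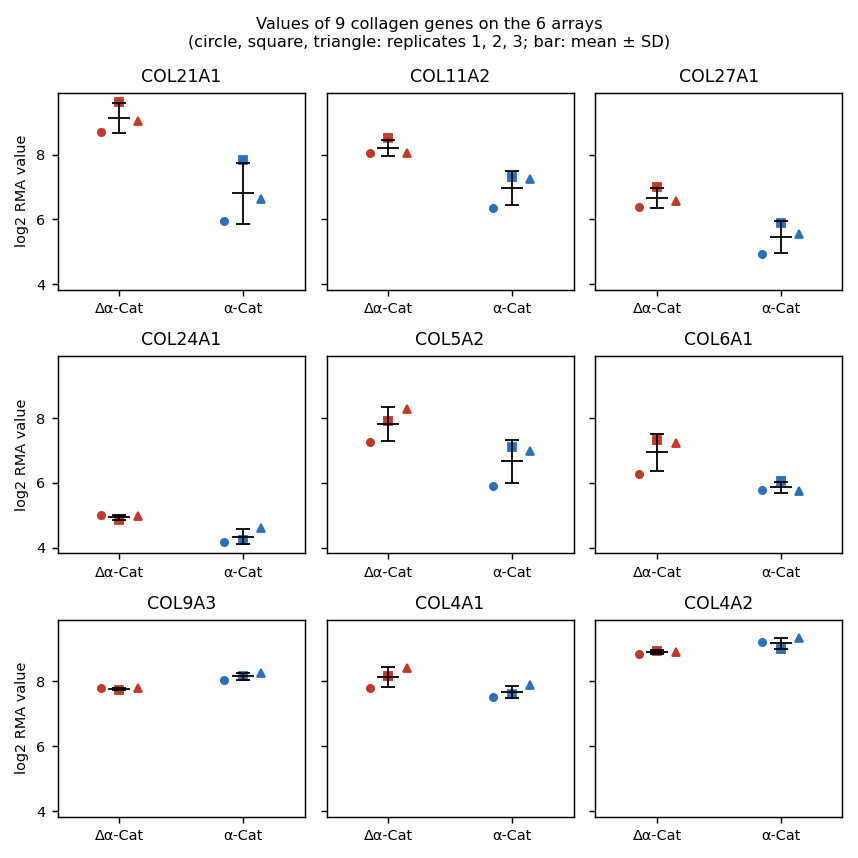
Log2 RMA values (vertical axis) of 9 collagen genes on each array, with the replicates as circle, square and triangle and the group mean ± SD (n = 3) as bars. COL21A1 stands from 8.71 to 9.63 in DLD-1Δα-Cat (red) and from 5.96 to 7.82 in DLD-1α-Cat (blue), while COL4A2 and COL9A3 lie slightly lower in DLD-1Δα-Cat.

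The adjusted p of these 4 genes lay near the threshold, and leaving out an array often moved it past. The differences kept their direction, from 1.90 to 2.83 for COL21A1, from 0.93 to 1.40 for COL11A2, from 0.93 to 1.42 for COL27A1 and from 0.51 to 0.73 for COL24A1. Calls over all genes fell too in 5 of the 6 fits, from 760 higher genes to between 323 and 565, and rose to 854 without replicate 2 of DLD-1α-Cat. Of the 6 fits that each left out 1 array, COL11A2 passed in 2, and COL21A1, COL27A1 and COL24A1 passed in 1 each. Only COL11A2 and COL10A1 passed without replicate 1 of DLD-1α-Cat, and no collagen gene passed without replicate 2 or replicate 3 of DLD-1Δα-Cat. Only COL6A1 passed without replicate 1 of DLD-1Δα-Cat, and only COL24A1 without replicate 3 of DLD-1α-Cat. COL21A1, COL11A2 and COL27A1 passed without replicate 2 of DLD-1α-Cat. With the β-actin ratio as a covariate none passed, with differences of 1.70 for COL21A1 (limma adjusted p = 0.613), 1.29 for COL11A2 (0.515), 1.04 for COL27A1 (0.613) and 0.95 for COL24A1 (0.110). In that fit only 58 of all genes were higher, so few calls remained for any gene. With the replicate number as a block, COL24A1 did not pass (limma adjusted p = 0.0543), while COL5A2 (0.0201) and COL6A1 (0.0499) did. Of all tested genes 5.12% were higher and 2.27% lower with that block.

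**Figure D2:**
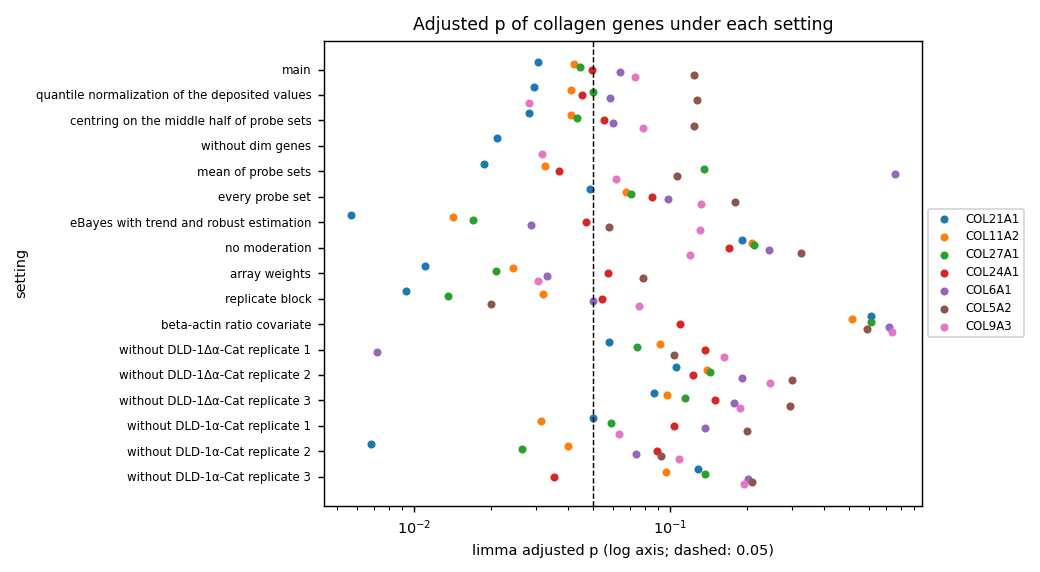
Limma adjusted p (horizontal log axis, dashed line at 0.05) of 7 collagen genes under each processing setting (vertical axis), 1 colour per gene. COL21A1, COL11A2, COL27A1 and COL24A1 lie just left of the line in the main setting, at 0.0306 to 0.0495, and right of it without moderation and with the β-actin covariate.

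The promoter windows of the 4 genes are shown because these genes rose together. Each window holds 250 bases before and 50 bases from the transcription start in RefSeq (GRCh38.p14), 5′ to 3′ on the gene's strand, and for a gene with several starts the most upstream one. Capitals mark 3 short motifs found on either strand, namely TATAAA (the core of a TATA box), CCAAT (that of a CCAAT box) and GGGCGG (that of a GC box). No motif overlapped one of another kind in the windows printed. The array does not tell which start is used.
COL21A1, at chr6:56394079-56394378 on the minus strand, the most upstream of 3 windows, is printed first.
COL21A1: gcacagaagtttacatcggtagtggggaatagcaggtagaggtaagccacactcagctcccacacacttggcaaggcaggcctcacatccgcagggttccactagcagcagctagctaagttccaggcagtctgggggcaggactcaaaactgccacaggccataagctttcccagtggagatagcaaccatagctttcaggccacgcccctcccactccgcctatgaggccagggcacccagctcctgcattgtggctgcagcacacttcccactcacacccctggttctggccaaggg
COL11A2, at chr6:33193470-33193769 on the minus strand, is the most upstream of 4 windows.
COL11A2: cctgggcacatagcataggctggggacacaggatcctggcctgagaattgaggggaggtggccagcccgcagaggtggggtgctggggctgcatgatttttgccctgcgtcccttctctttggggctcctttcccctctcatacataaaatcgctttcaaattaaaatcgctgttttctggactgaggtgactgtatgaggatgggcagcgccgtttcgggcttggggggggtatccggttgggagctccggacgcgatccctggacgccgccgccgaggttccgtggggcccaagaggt
COL27A1 has a single window, at chr9:114155287-114155586 on the plus strand.
COL27A1: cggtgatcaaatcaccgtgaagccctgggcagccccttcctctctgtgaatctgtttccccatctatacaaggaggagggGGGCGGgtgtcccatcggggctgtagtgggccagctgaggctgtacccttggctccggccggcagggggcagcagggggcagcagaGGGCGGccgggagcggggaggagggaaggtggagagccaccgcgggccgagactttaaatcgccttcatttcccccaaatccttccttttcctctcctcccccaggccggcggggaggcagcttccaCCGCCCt
COL24A1, at chr1:86156723-86157022 on the minus strand, is the upper of 2 windows.
COL24A1: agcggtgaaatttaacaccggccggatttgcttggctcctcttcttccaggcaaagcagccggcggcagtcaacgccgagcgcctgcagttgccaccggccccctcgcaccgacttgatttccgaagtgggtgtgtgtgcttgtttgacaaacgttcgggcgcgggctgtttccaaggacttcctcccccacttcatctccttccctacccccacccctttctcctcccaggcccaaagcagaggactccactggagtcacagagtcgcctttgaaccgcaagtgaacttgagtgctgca
GGGCGG occurred 3 times in the COL27A1 window, and none of the 3 motifs occurred in those of COL21A1, COL11A2 and COL24A1. RefSeq windows were matched for 31 of the 43 genes, 43 windows in all. GGGCGG was found in 55.8% of these collagen windows and in 45.0% of all 35116 windows, CCAAT in 30.2% against 34.6%, and TATAAA in 16.3% against 11.5%. A match of letters is a description and says nothing about a factor.

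The other fibrillar genes gave no call in the fit without a block. COL5A2, a chain of type V collagen that sets the width of fibrils, came closest in size. It read 7.26, 7.89 and 8.29 in DLD-1Δα-Cat and 5.91, 7.09 and 6.97 in DLD-1α-Cat, without overlap, for a difference of 1.15 (SE 0.363, limma adjusted p = 0.124), and it passed with the replicate block (0.0201). Its second probe set stood at 1.00. COL5A1, the other main chain of type V, differed by -0.55 (limma adjusted p = 0.274) and its arrays overlapped. COL1A1 and COL1A2, the chains of type I collagen, differed by -0.27 (limma adjusted p = 0.584) and -0.29 (0.419), and COL3A1, the chain of type III, by -0.16 (0.563). In these 3 genes the arrays of the subclones overlapped. The COL1A1 probe sets themselves ran from -0.27 to 0.64, and none passed. COL2A1, the cartilage fibril chain, read 4.86 to 5.12 in DLD-1Δα-Cat and 5.15 to 5.53 in DLD-1α-Cat, without overlap, a difference of -0.39 (limma adjusted p = 0.148). COL11A1, the partner of COL11A2 in type XI, stood at -0.32 (limma adjusted p = 0.285) and COL5A3, a further type V chain, at -0.11 (0.792).

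**Figure D3:**
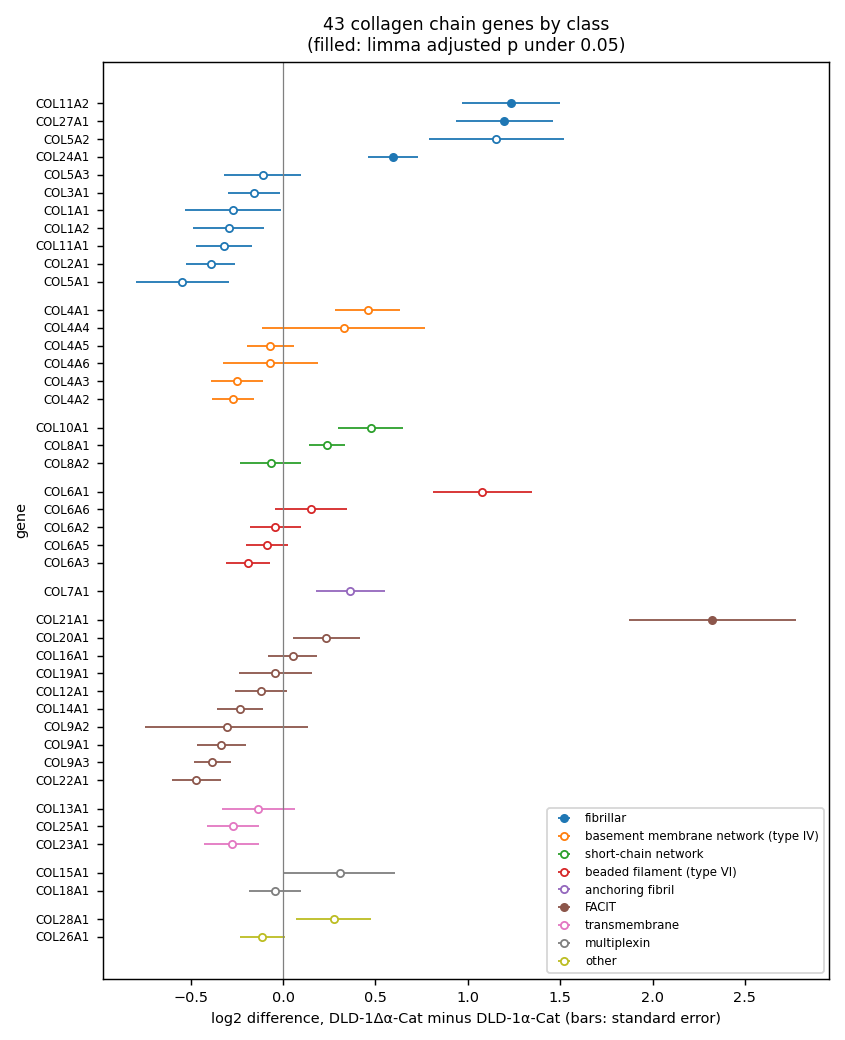
Log2 difference with its standard error (horizontal axis) of the 43 collagen genes, sorted within structural classes (colours), with filled points for limma adjusted p under 0.05. The 4 filled points, COL21A1 and the fibrillar COL11A2, COL27A1 and COL24A1, lie to the right of 0, and 36 of the 43 genes lie within 0.5 of it.

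None of the 6 genes of type IV, the collagen of basement membranes, passed. COL4A2 read 8.86, 8.95 and 8.92 in DLD-1Δα-Cat and 9.22, 8.99 and 9.33 in DLD-1α-Cat. All DLD-1Δα-Cat arrays were lower, at a difference of -0.27 (SE 0.114, limma adjusted p = 0.233). COL4A1 read 7.81, 8.17 and 8.42 against 7.51, 7.62 and 7.89, with overlap, and a difference of 0.46 (SE 0.177, limma adjusted p = 0.200). The chains of COL4A1 and COL4A2 assemble into the same molecule, and their genes lie head to head. Within each array, COL4A1 minus COL4A2 averaged -0.78 (SD 0.273, n = 3) for DLD-1Δα-Cat against -1.51 (SD 0.181, n = 3) for DLD-1α-Cat. The difference of 0.73 was without overlap, with an exact two-sided permutation p of 0.1, the smallest that 3 against 3 arrays can give. Only its change between subclones is read here, since levels of different probe sets are not comparable. The second, dimmer probe sets differed by 0.28 for COL4A1 and -0.085 for COL4A2, in the same directions.

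The windows of this pair are shown because a single stretch of DNA serves both genes. Their RefSeq starts lie 127 bases apart on opposite strands, and 226 bases of the windows are the same DNA read from either strand. Capitals are as above.
COL4A1 lies at chr13:110307108-110307407 on the minus strand.
COL4A1: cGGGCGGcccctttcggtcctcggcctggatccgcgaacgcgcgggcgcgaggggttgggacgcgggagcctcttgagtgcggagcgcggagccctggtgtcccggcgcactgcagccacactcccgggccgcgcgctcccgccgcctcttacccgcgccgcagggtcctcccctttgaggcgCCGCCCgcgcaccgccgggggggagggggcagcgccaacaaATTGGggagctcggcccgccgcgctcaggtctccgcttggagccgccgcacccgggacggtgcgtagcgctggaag
COL4A2 lies at chr13:110307034-110307333 on the plus strand.
COL4A2: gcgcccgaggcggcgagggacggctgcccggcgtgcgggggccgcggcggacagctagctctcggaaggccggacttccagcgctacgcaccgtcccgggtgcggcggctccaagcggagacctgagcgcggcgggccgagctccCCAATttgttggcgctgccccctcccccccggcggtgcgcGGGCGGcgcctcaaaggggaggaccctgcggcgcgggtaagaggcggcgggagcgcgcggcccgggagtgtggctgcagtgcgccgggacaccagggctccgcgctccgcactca
GGGCGG occurred 2 times in the COL4A1 window and 1 time in that of COL4A2, and CCAAT 1 time in each. Neither held TATAAA. The other type IV pairs have the same layout, with starts 419 bases apart for COL4A3 and COL4A4 and 380 for COL4A5 and COL4A6. All 4 were dim, with differences of -0.25 for COL4A3, 0.33 for COL4A4, -0.069 for COL4A5 and -0.069 for COL4A6, none past the threshold (limma adjusted p from 0.357 to 0.900). COL4A4 spread widely in DLD-1Δα-Cat, from 4.42 to 6.18.

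Among type VI genes, whose product forms beaded filaments, the sign of the COL6A1 difference depended on the probe set, and none of the 5 genes passed. The brightest probe set of COL6A1 read 6.29, 7.31 and 7.21 in DLD-1Δα-Cat and 5.77, 6.07 and 5.74 in DLD-1α-Cat. There was no overlap, and the difference was 1.08 (SE 0.266, limma adjusted p = 0.0639). It passed with trended and robust moderation (adjusted p = 0.0286), with array weights (0.0330) and with the replicate block (0.0499). All 7 other probe sets of COL6A1 lay below 0, between -0.38 and -0.11, and with the mean of its probe sets the difference was -0.080 (limma adjusted p = 0.758). Its partner chains COL6A2 and COL6A3 differed by -0.044 (limma adjusted p = 0.880) and -0.19 (0.403). COL6A5 and COL6A6, relatives of COL6A3, stood at -0.087 and 0.15.

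Of the 9 remaining FACIT genes 7 lay below 0 and none passed. COL9A3, a chain of type IX that coats cartilage fibrils, read 7.79, 7.74 and 7.79 in DLD-1Δα-Cat and 8.04, 8.17 and 8.26 in DLD-1α-Cat. The groups did not overlap, and the difference was -0.38 (SE 0.0987, limma adjusted p = 0.0729). It passed after quantile normalization (adjusted p = 0.0281), with array weights (0.0306) and without dim genes (0.0317). Its partner COL9A1 differed by -0.33, also without overlap (limma adjusted p = 0.211), and COL9A2 by -0.31 with wide spread (0.723). COL22A1, a collagen of tissue junctions such as that of muscle and tendon, differed by -0.47 (limma adjusted p = 0.0942) at a level between 3.38 and 4.09. COL12A1 and COL14A1, which link fibrils to their surroundings, stood at -0.12 and -0.24, and COL16A1, COL19A1 and COL20A1 between -0.043 and 0.23.

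The other classes held no call. COL7A1, which forms the anchoring fibrils under skin epithelium, differed by 0.36 (limma adjusted p = 0.321), with arrays that overlapped. The transmembrane genes COL13A1, COL23A1 and COL25A1 differed by -0.13, -0.28 and -0.27. COL18A1, the basement membrane collagen from which endostatin is cut, stood at -0.044 (limma adjusted p = 0.884), with means of 7.03 (SD 0.0254, n = 3) for DLD-1Δα-Cat and 7.07 (SD 0.264, n = 3) for DLD-1α-Cat, and its relative COL15A1 at 0.31 (0.600). The short-chain genes COL10A1, COL8A1 and COL8A2 stood at 0.47, 0.24 and -0.068, and COL28A1 and COL26A1 at 0.27 and -0.11.

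Probe sets of the same gene often disagreed. The 43 genes had 112 probe sets, of which 69 were not the brightest, and 34 of the 69 had the sign of their gene's brightest one. All further probe sets shared that sign in 15 of the 35 genes with more than 1. The matching shares over all tested genes were not worked out, so these counts do not set collagen genes apart. For COL27A1 the further probe sets stood at -0.090, 1.00, -0.35 and -0.053, and for COL11A2 the only other one stood at 0.028. When probe sets were averaged per gene, COL27A1 fell short of the threshold, at 0.34 (limma adjusted p = 0.136), and COL11A2 passed at 0.63 (0.0325). In that setting COL10A1 (0.91, limma adjusted p = 0.00206) and COL28A1 (0.82, 0.0217) passed as well. When all 54613 probe sets were tested together, COL21A1 was the only collagen gene whose brightest probe set passed (limma adjusted p = 0.0487). In that fit 1.72% of all probe sets were higher and 0.729% lower. COL24A1, like COL21A1, rests on 1 probe set.

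**Figure D4:**
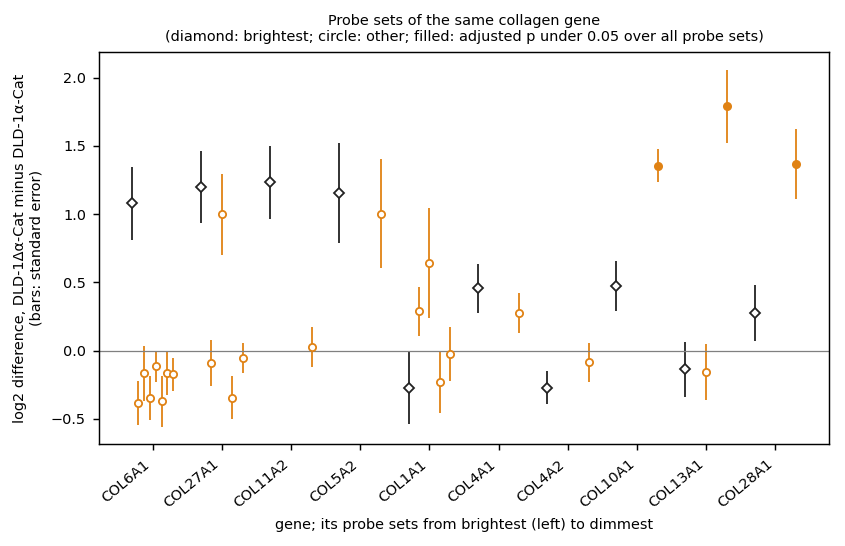
Log2 difference with its standard error (vertical axis) of every probe set of 10 collagen genes (horizontal axis), with diamonds for the brightest and circles for the others, and filled symbols for limma adjusted p under 0.05 over all probe sets. The brightest COL6A1 probe set lies at 1.08 and its 7 others between -0.38 and -0.11, and the filled circles belong to COL10A1, COL13A1 and COL28A1.

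Genes that act on collagen were read from a list of 57, of which 55 had a value. The list was chosen with earlier results of these data known. Of the 55 genes 3 rose and 1 fell, beside 3.84% and 1.67% of all tested genes, and their median difference was -0.032. P3H2, a prolyl hydroxylase that modifies type IV collagen in particular, rose most. It read 8.37, 8.50 and 8.83 in DLD-1Δα-Cat and 6.10, 6.58 and 7.01 in DLD-1α-Cat. The difference was 2.01 (SE 0.233, limma adjusted p = 0.00442), 4.02-fold, and it passed in each of the 6 fits that left out an array. Its other, dim probe set stood at -0.21, with all DLD-1Δα-Cat arrays lower. None of the other 13 measured genes of hydroxylation and glycosylation passed. P3H1, its relative, differed by -0.45 (limma adjusted p = 0.0619) and P4HB, a subunit of prolyl 4-hydroxylase, by -0.032 (0.871).

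In folding and secretion 1 of 10 genes rose. MIA2, which helps large cargo such as procollagen leave the endoplasmic reticulum, read 9.83, 10.01 and 9.79 in DLD-1Δα-Cat and 9.29, 9.40 and 9.13 in DLD-1α-Cat (difference 0.60, SE 0.115, limma adjusted p = 0.0273). Its 3 other probe sets stood at 1.11, -0.26 and -0.011, and their arrays overlapped. The collagen chaperone SERPINH1 differed by 0.21 (limma adjusted p = 0.395). Of 8 genes of propeptide cleavage, PCOLCE2, an enhancer of procollagen C-proteinases, fell and TLL2, a proteinase of the tolloid family, rose. PCOLCE2 read 5.94, 6.15 and 5.99 against 6.67, 6.97 and 6.87 (difference -0.81, SE 0.117, limma adjusted p = 0.0103). TLL2 read 6.66, 6.52 and 6.58 against 6.12, 6.13 and 6.19 (difference 0.44, SE 0.0916, limma adjusted p = 0.0373). Its 2 other probe sets stood at 1.72, with overlap, and at -0.25, with all DLD-1Δα-Cat arrays lower. Leaving out single arrays kept PCOLCE2 past the threshold in 5 of 6 fits, its exception being replicate 3 of DLD-1α-Cat (adjusted p = 0.0520). MIA2 passed in 1 of those 6 fits and TLL2 in 0.

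No gene passed among 6 of cross-linking, 9 collagen receptors and 8 of collagen cleavage. Of all tested genes 3.84% were higher and 1.67% lower, so 0 calls in lists this short lie near the background. LOXL3, a lysyl oxidase that cross-links collagen, differed by -0.41 (limma adjusted p = 0.291). ITGA2, the α-subunit of an epithelial collagen receptor, differed by 0.062 (limma adjusted p = 0.871), and the sign changed in 4 of the alternative fits. ITGA10, a collagen-binding integrin subunit, had the largest difference among the receptors, 0.85 (limma adjusted p = 0.123), with overlapping arrays.

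**Figure D5:**
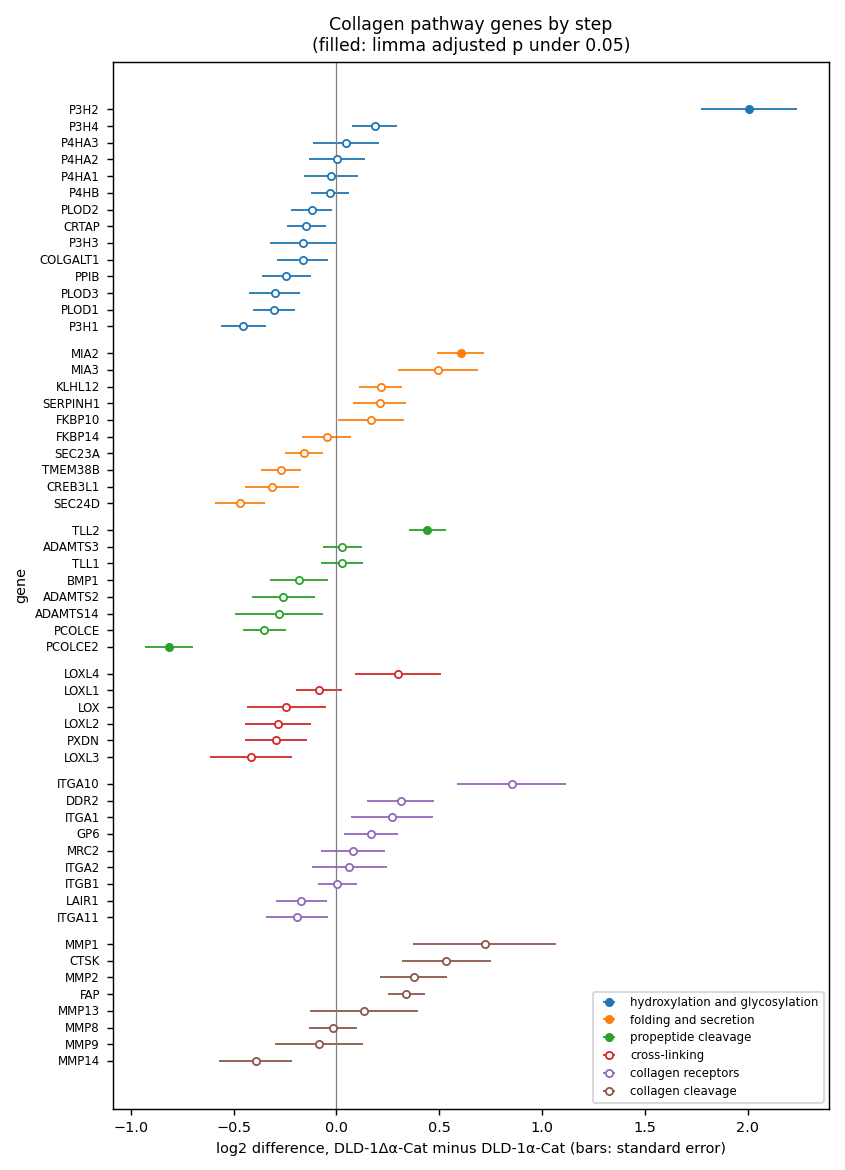
Log2 difference with its standard error (horizontal axis) of 55 genes of collagen synthesis, recognition and cleavage, sorted within steps (colours), with filled points for limma adjusted p under 0.05. P3H2 lies far to the right at 2.01, MIA2 at 0.60 and TLL2 at 0.44 to the right of 0, and PCOLCE2 at -0.81 to the left.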

How the data were processed

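The 6 arrays were compared from the authors' deposited log2 values, which per the submitters' processing notes come from RMA in Expression Console (Affymetrix), with no version given in the sources used here. The method removes background, equalises the arrays by quantiles and summarises probe sets, so a shift of all RNA together is not seen. Of 54675 probe sets, 62 controls were left out and 41091 had a single gene symbol in the platform annotation; the brightest represented each gene. Genes were tested with limma 3.58.1 in R 4.3.3 (lmFit, eBayes, two-sided, Benjamini-Hochberg over 19775 genes, threshold 0.05), and the fit was tested on simulated data. The number of arrays, 3 per group, limits precision.

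Members and lists were chosen with earlier results of these data known. Values per array are given for collagen genes past the threshold, up to 4 of the largest and 4 of the lowest differences among genes above the median level, and their partner chains. From each pathway list, passing members are named, or else the most different one above that level. COL5A2, COL6A1, ITGA10 and other members were added after their values were seen. Same-numbered arrays deviated together (correlations 0.225, 0.376 and 0.122 over genes). Correlations between differently numbered arrays were not kept for comparison. The main fit did not pair the arrays. An alternative fit used the titles' numbers as a block, a pairing taken from the data and not from a stated design. Further alternatives were scaling, centring, a filter on dim genes, other handling of probe sets, other variance models, array weights, a β-actin covariate (3' over 5' signal) and leaving out each array. Promoter windows are from RefSeq.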

Additional observations from a re-analysis of the deposited data

Results flagged for a closer look

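Probe sets outside the comparison of genes gave calls for 3 collagen genes whose brightest probe set did not pass. They were found among the 69 further collagen probe sets in the fit over all probe sets, in which 3 rose (4.35%, beside 1.72% of all 54613 probe sets) and 0 fell (beside 0.729%). For COL13A1, a transmembrane collagen, the dimmest of 3 probe sets read 6.63, 7.05 and 6.99 in DLD-1Δα-Cat and 5.72, 4.88 and 4.70 in DLD-1α-Cat, a difference of 1.79 (limma adjusted p = 0.0200), while the other 2 stood at -0.13 and -0.15. For COL10A1, the short-chain collagen of growth plate cartilage, the second probe set read 4.50, 4.33 and 4.29 against 2.95, 2.94 and 3.16, a difference of 1.36 (limma adjusted p = 0.00241). For COL28A1 the second probe set read 4.67, 5.68 and 5.19 against 3.60, 4.08 and 3.77, a difference of 1.37 (limma adjusted p = 0.0409). The groups did not overlap in these 3 probe sets. Why probe sets of 1 gene differ was not tested.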

How the results depend on the processing

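The directions of COL21A1, COL11A2, COL27A1 and COL24A1 did not change in any alternative that gave them a value, but their calls did. The 4 higher collagen genes became 1 without dim genes, where only 4 collagen genes were tested, 1 with every probe set tested, 0 without moderation and 0 with the β-actin covariate. Of all genes 6.61%, 2.59%, 0.339% and 0.293% were higher in these settings. The count was 5 with the mean of probe sets, with trended and robust moderation and with array weights, where 3.94%, 5.82% and 5.43% of all genes were higher. It was 3 after quantile normalization and after centring, where 3.92% and 3.77% of all genes were higher. Leaving out single arrays gave between 0 and 3, beside 1.63% to 4.32% of all genes. The 0 lower collagen genes became 1, COL9A3, after quantile normalization, without dim genes and with array weights. Of all genes 1.99%, 4.48% and 2.78% were lower in these settings. The median difference of collagen genes was 0.092 over the 4 genes kept without dim genes, and ran from -0.18 to 0.042 over the fits that left out an array, above 0 without replicate 1 of DLD-1α-Cat. With the replicate number as a block, 5 collagen genes were higher and 0 lower, and 3 pathway genes higher and 1 lower, beside 5.12% and 2.27% of all genes; the block changed no other call than those given above.

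The 3 higher pathway genes became 1 without dim genes (MIA2), where only 21 pathway genes were tested and 6.61% of all genes were higher. P3H2, TLL2 and PCOLCE2 were too dim for that filter, so they had no test there. P3H2 was the 1 left with the mean of probe sets, with every probe set and with the β-actin covariate (2.58 there, limma adjusted p = 0.0482). Of all genes 3.94%, 2.59% and 0.293% were higher in these settings. The count was 2 with trended and robust moderation (5.82% of all genes) and 0 without moderation (0.339%). Single arrays left out gave 1 to 4, beside 1.63% to 4.32% of all genes. The 1 lower pathway gene became 3 after quantile normalization, 2 with the mean of probe sets and 4 with array weights. In these settings 1.99%, 1.90% and 2.78% of all genes were lower. Without dim genes, where PCOLCE2 was not tested, SEC24D was the 1 lower pathway gene (4.48% of all genes). The count was 0 without moderation (0.243%) and 0 with the β-actin covariate (0.131%). Single arrays left out gave 0 to 2, beside 0.587% to 1.76% of all genes. ITGA2 changed sign to -0.059 with the mean of probe sets and -0.079 with the β-actin covariate. Its fits that left out an array ran from -0.076 (replicate 1 of DLD-1α-Cat) to 0.21 (replicate 2 of that subclone), with -0.031 for replicate 2 of DLD-1Δα-Cat. LOXL3 turned to 0.23 with the covariate. What caused these changes was not tested.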

Other observations

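The collagen genes spread more between the DLD-1α-Cat arrays than between the DLD-1Δα-Cat arrays, with median SDs of 0.260 and 0.142 (n = 3 arrays each), beside 0.171 and 0.124 over all tested genes. A further COL5A1 probe set read 7.56 on replicate 1 of DLD-1Δα-Cat and between 3.91 and 4.53 on the other arrays, and its difference of 1.14 did not pass (limma adjusted p = 0.551). COL9A2 ran from 4.61 to 6.33 within DLD-1α-Cat.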
